A study of Homo sapiens with 12 samples.

Results

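A549 cells that had been kept in a no-observed-effect level of cisplatin for 48 h were set against A549 cells kept in the same level for 24 h, to show how the transcriptome of drug-exposed cells moved over the second day. The 6 arrays labelled with cisplatin (3 at 48 h and 3 at 24 h) were taken from the 12 arrays of the series, and the 6 arrays of untreated A549 cells (3 at 48 h and 3 at 24 h) were used beside them. A549 is an established human lung adenocarcinoma line, and cisplatin is a platinum drug that crosslinks DNA. Cells were seeded at 5000 per well in 96-well plates, and on the next day cisplatin was added at its 10% inhibitory concentration or the wells were left untreated. The 48 h samples had therefore also spent 1 more day in culture than the 24 h samples, and within the treated cells the length of drug exposure and the time in culture cannot be told apart. As these are bulk RNA samples, fewer cells of one state and less RNA per cell cannot be told apart either. The microarray methods name 3 independent experiments, and the study concerns 1 cell line at 1 dose.

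Expression was measured on the GeneChip Human Exon 1.0 ST array and is given as log2 values after robust multi-array average (RMA) summarization, so a difference of 1 is a 2-fold change. Of 22011 transcript clusters, 14432 were paired with a single gene symbol, and the brightest cluster of each gene gave 14232 genes. The 6 treated arrays correlated with each other at 0.992 to 0.996 over these genes. With 3 arrays a time the precision was limited, and the 95% interval of a single gene's time change had a median half-width of 0.23. Among the untreated arrays, replicate 3 at 24 h stood apart, with a mean correlation of 0.978 with the other 11 arrays, against 0.989 to 0.993 for those 11, and values from untreated cells name the number of arrays they use (6 or 12 with it, 5 or 11 without it). The study's methods report that 1 outlier, described as a sample set from 24 h, was discarded, and do not say which arrays it held. All 6 treated arrays were kept here. The epithelial keratins of A549 were among the brightest genes (KRT8 averaged 13.70 at 48 h and 13.53 at 24 h). The mean level over 12 leukocyte markers was 6.52 to 6.67 at 48 h and 6.44 to 6.76 at 24 h, over 11 endothelial markers 6.50 to 6.58 at 48 h and 6.48 to 6.69 at 24 h, and over 10 fibroblast markers 5.98 to 6.04 at 48 h and 5.88 to 6.05 at 24 h, against 11.04 to 11.10 at 48 h and 10.73 to 10.97 at 24 h over 10 A549 markers. PTPRC, the pan-leukocyte antigen, and the matrix genes DCN and LUM lay in the lowest 2% of genes, but other members were brighter. Ranked by level among all genes, the median percentile was 23.8 for the leukocyte list, 28.1 for the endothelial list and 24.9 for the fibroblast list. CD14 stood at percentile 42.7 and COL1A1 at 51.55.

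Genes that were higher on every 48 h array than on any 24 h array of cisplatin-treated cells included the lipid genes SCD, INSIG1 and HILPDA, the metabolic switch PDK4 and the adhesion gene CDH1. Genes that were lower on every 48 h array included the growth-signal transcription factors ETS1 and FOSL1, the secreted factor CCN1 and the NF-kB inhibitor NFKBIA. The differences of these 9 genes lay between 1.07 and -0.66 on the log2 scale, and no single gene passed the test across all genes. With limma on the 6 treated arrays, 0 of 14232 genes had an adjusted p under 0.05 (Benjamini-Hochberg), and the smallest adjusted p was 0.291. At an unadjusted p under 0.05, 717 genes (5.04%) were counted, 416 of them higher at 48 h (2.92%) and 301 lower (2.11%). At an unadjusted p under 0.005, the short-list threshold of the study's methods, there were 98 genes (0.689%), 70 higher (0.492%) and 28 lower (0.197%). All 98 were without overlap, meaning that every 48 h array lay on the same side of every 24 h array, which held for 721 genes in the higher direction (5.07%) and for 727 in the lower direction (5.11%). These percentages are the background against which the members of each gene list are read below, and no gene named here passed adjustment in this fit. By sign alone, 7011 genes were higher at 48 h and 7221 lower. When the arrays were weighted by their estimated quality, 100 genes passed an adjusted p under 0.05 (75 higher and 25 lower, 62 of them among the 98), so the number of calls rested on how the spread of the 6 arrays was modelled. Without cisplatin 48 h replicate 1 the 98 became 53. Some list members beyond those picked by the naming rule (ACACA, FADS1, FASN, HMGCS1, SQLE, CCNG2, SESN3, CCL2, CXCL2, CXCL3, CXCL5, CXCL8, EREG, HBEGF, IL6, IL32, RELB, TNF, MTHFD2, MYC and NPM1) are also described and were chosen after their values were seen.

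**Figure D1:**
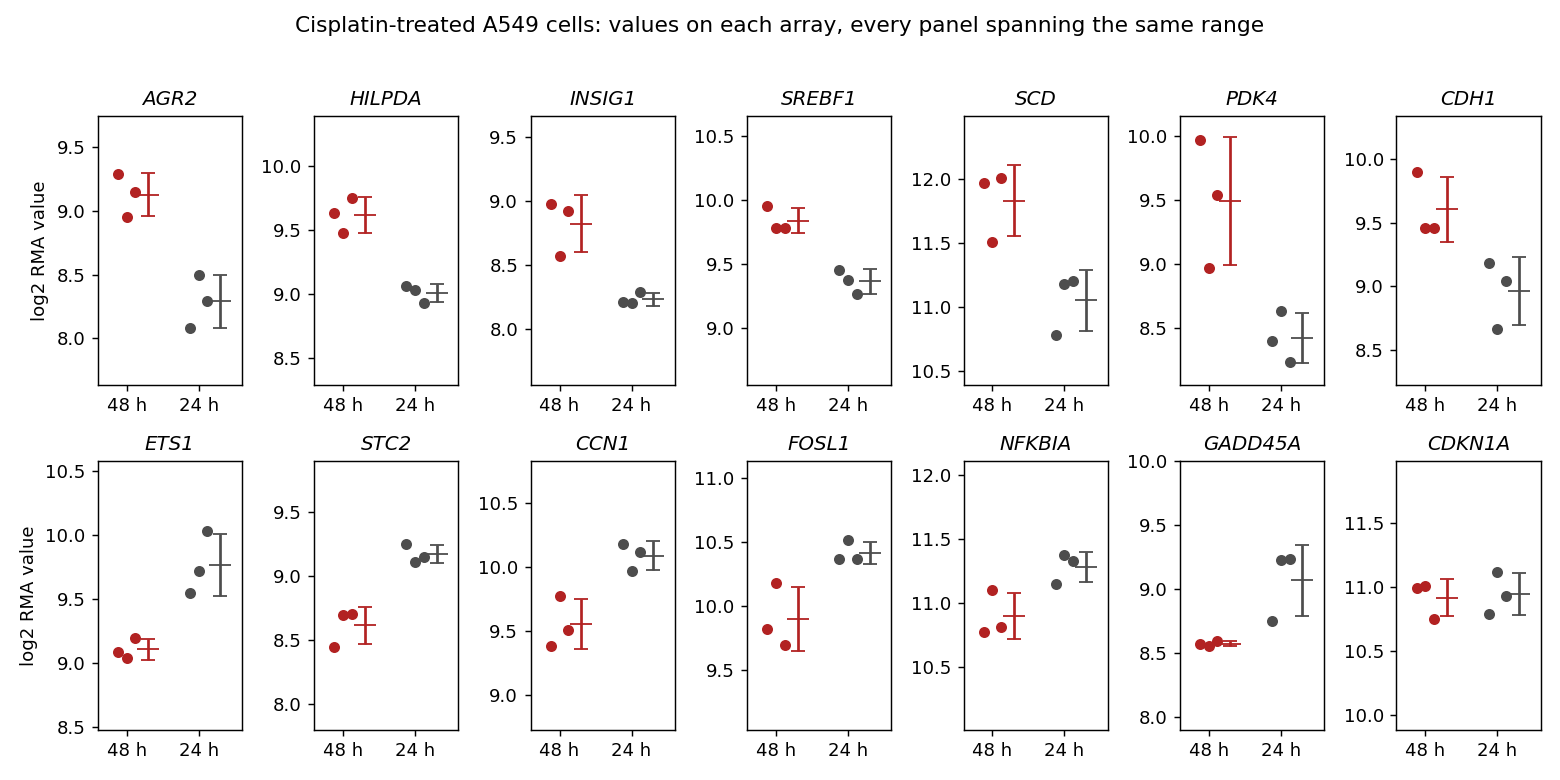
Log2 RMA values of 14 genes on the 3 arrays of cisplatin-treated A549 cells at 48 h (red points, left) and the 3 at 24 h (grey points, right), with the mean and SD beside the points (n = 3 each); every panel spans the same height. The arrays of the 2 times do not overlap for 13 of the genes, and CDKN1A, in the last panel, overlaps.

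Sterol and fatty acid genes stood among those that were higher at 48 h. In animal cells, sterol regulatory element-binding proteins (SREBPs) wait in the endoplasmic reticulum until lipid runs short, and then travel to the nucleus and turn on the enzymes that make cholesterol and fatty acids. INSIG1, the endoplasmic reticulum protein that holds them back and is itself their target, read 8.98, 8.57 and 8.93 at 48 h, against 8.21, 8.20 and 8.29 at 24 h. Its lowest 48 h array, replicate 2, was still above the highest 24 h array, and the difference was 0.59 ± 0.12 (SE; 95% interval 0.33 to 0.85; adjusted p = 0.415). SREBF1, which encodes the SREBP that favours fatty acid enzymes, read 9.95, 9.78 and 9.78 at 48 h, against 9.45, 9.38 and 9.26 at 24 h, a difference of 0.48 ± 0.09 with closely grouped arrays at both times. SCD, the desaturase that makes monounsaturated fatty acids, was one of the brighter genes on the array and read 11.97, 11.51 and 12.01 at 48 h, against 10.78, 11.18 and 11.20 at 24 h. Replicate 2 at 48 h and replicate 1 at 24 h were the low arrays of their groups, and the difference was 0.78 ± 0.16 (adjusted p = 0.415).

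Of 26 genes listed for cholesterol synthesis and its control, 16 were tested and 12 were higher at 48 h on average. The median difference was 0.16, against -0.0018 over all genes, 5 of 16 were counted at an unadjusted p under 0.05 in the higher direction and 0 in the lower, and 7 of 16 were without overlap in the higher direction. Beside INSIG1 these included STARD4, a carrier that moves sterol between membranes (8.06, 8.02 and 8.25 at 48 h, against 7.71, 7.62 and 7.75 at 24 h). The difference for STARD4 was 0.42 ± 0.09. DHCR7, the reductase of the last step of cholesterol synthesis, averaged 10.90 at 48 h and 10.51 at 24 h (difference 0.38 ± 0.11). MVK, mevalonate kinase, differed by 0.23 ± 0.08, and TM7SF2, a sterol reductase, by 0.26 ± 0.09. The list was not uniform: HMGCS1, which makes the first committed intermediate, differed by -0.12 ± 0.11 and SQLE, squalene epoxidase, by -0.01 ± 0.10, both with overlapping arrays.

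Among 29 tested genes of fatty acid and triglyceride metabolism the median difference was 0.05, with 22 positive values, 7 counted as higher and 1 as lower at an unadjusted p under 0.05, and 8 without overlap in the higher direction. The synthesis enzymes FADS2 (0.44 ± 0.13) and FADS1 (0.27 ± 0.11), the desaturases of polyunsaturated fatty acids, ACACA (0.24 ± 0.09), acetyl-CoA carboxylase, and FASN (0.16 ± 0.08), fatty acid synthase, all had positive differences, and the arrays of FADS1 overlapped. PDK4, the kinase that shuts pyruvate out of the mitochondrial oxidation complex, had the largest difference among genes above the median level and read 9.97, 8.97 and 9.54 at 48 h, against 8.40, 8.63 and 8.23 at 24 h. Its 48 h arrays were widely spread, and the difference was 1.07 ± 0.22 (95% interval 0.57 to 1.57; adjusted p = 0.415). HILPDA, a lipid droplet protein that restrains triglyceride breakdown, read 9.63, 9.48 and 9.75 at 48 h, against 9.07, 9.03 and 8.93 at 24 h. Its difference was 0.61 ± 0.10, with narrow groups. HILPDA was a member of the glycolysis and hypoxia list and not of the fatty acid list. The glycolysis and hypoxia list had a median of 0.03 over 32 tested genes, with 2 counted as higher and 1 as lower. On the lower side of the fatty acid list stood DGAT2, the enzyme of the final step of triglyceride synthesis. It read 7.93, 8.33 and 7.96 at 48 h, against 8.48, 8.49 and 8.45 at 24 h. For DGAT2 the difference was -0.40 ± 0.11, and replicate 2 at 48 h was close to the 24 h arrays. NCEH1, a hydrolase of cholesterol esters outside this list, was also lower on every 48 h array, with a difference of -0.38 ± 0.08.

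The 250 bases before the RefSeq start site of INSIG1 (GRCh38.p14, chr7:155297628-155297877, plus strand) are shown because INSIG1 had the largest difference of the cholesterol list. A few short motifs were searched on both strands in the 250 bases before the start of 35116 RefSeq genes, where N is any base. The E-box CACGTG was held by 6.34% of these windows, a sterol element written TCACNCCAC by 0.883%, the AP-1 motif TGANTCA by 6.57%, and an NF-kB motif that reads GGGA, any base, TT, any base, CC by 1.26%. None of these patterns is part of another. The INSIG1 window held an E-box, in capitals below, 55 bases before the start. Windows were at hand for 15 of the 16 tested genes of the cholesterol list, of which 2 held an E-box and 0 the sterol element as written; these are matches of letters and not binding sites.
INSIG1: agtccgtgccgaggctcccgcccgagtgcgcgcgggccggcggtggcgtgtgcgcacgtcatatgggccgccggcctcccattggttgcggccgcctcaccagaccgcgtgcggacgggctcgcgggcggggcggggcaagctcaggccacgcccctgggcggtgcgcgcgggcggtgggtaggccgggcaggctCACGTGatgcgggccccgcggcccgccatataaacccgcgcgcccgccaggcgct

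Genes that restrain growth when insulin and growth factor signals are low were likewise on the higher side. When the insulin pathway is quiet, FOXO transcription factors enter the nucleus and raise genes that slow metabolism and division. Of 25 tested genes of this kind, 8 were counted as higher and 0 as lower at an unadjusted p under 0.05, and 8 were without overlap in the higher direction, with a median difference of 0.13. This list shares PDK4 with the fatty acid list. BCL6, a transcriptional repressor under FOXO control, read 8.46, 8.03 and 8.31 at 48 h, against 7.68, 7.79 and 7.76 at 24 h and differed by 0.53 ± 0.12. SESN3, a sestrin that restrains mTORC1, differed by 0.40 ± 0.14, and CCNG2, an unusual cyclin linked to arrest, by 0.44 ± 0.18 with overlapping arrays. TOB1, an antiproliferative protein, read 11.45, 11.10 and 11.19 at 48 h, against 10.91, 10.93 and 10.99 at 24 h, a smaller difference of 0.31 ± 0.10 in a bright gene. KLHL24, an adaptor of a ubiquitin ligase, differed by 0.38 ± 0.11 and YPEL5 by 0.27 ± 0.09, each without overlap. DDIT4, which also restrains mTORC1 and belongs to the stress response list, read 10.44, 10.18 and 10.24 at 48 h, against 9.87, 9.80 and 9.85 at 24 h, with a difference of 0.45 ± 0.09 (adjusted p = 0.415).

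Of 38 tested genes of epithelial and airway identity, 5 were counted as higher at 48 h and 1 as lower at an unadjusted p under 0.05, and the median difference was 0.05. CDH1, which encodes E-cadherin, the adhesion molecule of epithelial junctions, read 9.90, 9.46 and 9.46 at 48 h, against 9.18, 8.67 and 9.04 at 24 h. The groups did not overlap although both were spread, and the difference was 0.64 ± 0.16 (adjusted p = 0.616). CLDN7, a tight junction claudin, differed by 0.66 ± 0.16, and AGR2, a disulphide isomerase of secretory epithelia, by 0.84 ± 0.13. AGR2 read 9.28, 8.95 and 9.14 at 48 h, against 8.09, 8.50 and 8.29 at 24 h, which places every 48 h array at least 0.4 above the 24 h arrays, and its adjusted p was 0.291, the smallest value reached, shared by 16 genes. JUP, the junction protein plakoglobin, was chosen after its values were seen, and read 11.48, 11.37 and 11.34 at 48 h, against 10.80, 10.80 and 11.01 at 24 h (difference 0.53 ± 0.09). CLDN1 went the other way with a difference of -0.28 ± 0.08, at a level among the brightest 2% of genes. Among 20 tested mesenchymal genes, 1 was counted as higher (FN1, fibronectin, 0.42 ± 0.18, overlapping) and 0 as lower. The A549 marker list, whose mean level was given above, had 6 of 10 genes without overlap in the higher direction, among them KRT8 and ALDH3A1.

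The other genes named by rule on the higher side had roles in signalling and transport among others. ARRB1, the receptor adaptor beta-arrestin 1, read 9.83, 9.72 and 9.56 at 48 h, against 8.64, 9.15 and 8.98 at 24 h and differed by 0.78 ± 0.13. PTGS2, the inducible cyclooxygenase that starts prostaglandin synthesis, read 8.94, 8.49 and 9.10 at 48 h, against 8.13, 8.27 and 8.34 at 24 h, a difference of 0.60 ± 0.15. MTUS1, a microtubule-associated protein, differed by 0.84 ± 0.18, PDE3A, a phosphodiesterase that degrades cyclic AMP, by 0.66 ± 0.16, SEMA3A, a secreted guidance cue, by 0.54 ± 0.12, and SLC29A4, a membrane transporter of monoamines, by 0.54 ± 0.10. SMIM14 (0.65 ± 0.15), STAT4 (0.63 ± 0.16) and SELENBP1 (0.56 ± 0.13) completed the 15. Adjusted p-values of these 15 genes ran between 0.291 and 0.649. Outside the rule, and chosen after the values were seen, LINC00173, a long non-coding RNA, had the smallest unadjusted p of all genes and read 8.29, 8.16 and 8.15 at 48 h, against 7.47, 7.57 and 7.59 at 24 h. Its difference of 0.66 ± 0.08 was smaller than that of FLRT3, an adhesion protein, which read 8.63, 8.21 and 8.61 at 48 h, against 7.08, 7.59 and 7.64 at 24 h and differed by 1.04 ± 0.17.

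The genes named by rule on the lower side were led by ETS1 and STC2. ETS1, a transcription factor downstream of RAS and MAP kinase signals, read 9.08, 9.04 and 9.20 at 48 h, against 9.55, 9.72 and 10.03 at 24 h. All 48 h arrays lay within 0.2 of each other below the 24 h arrays, and the difference was -0.66 ± 0.12 (95% interval -0.94 to -0.38; adjusted p = 0.394). STC2, a secreted glycoprotein induced under endoplasmic reticulum stress, read 8.45, 8.70 and 8.70 at 48 h, against 9.25, 9.11 and 9.15 at 24 h, a difference of -0.56 ± 0.10. FOSL1, the AP-1 subunit FRA-1, read 9.82, 10.18 and 9.70 at 48 h, against 10.37, 10.52 and 10.37 at 24 h and differed by -0.52 ± 0.13, with replicate 2 the highest of the 48 h arrays. CCN1, a matrix-associated factor induced by YAP and serum, read 9.38, 9.77 and 9.51 at 48 h, against 10.18, 9.96 and 10.12 at 24 h, a difference of -0.53 ± 0.12. TNFRSF9, a receptor of the tumour necrosis factor family chosen after its values were seen, read 7.83, 8.03 and 7.63 at 48 h, against 8.68, 8.46 and 8.48 at 24 h, a difference of -0.71 ± 0.12. RHOB, a small GTPase of endosomes that is induced early by stress, differed by -0.34 ± 0.08 with the 48 h arrays within 0.1 of each other. PAK1IP1, which acts in ribosome assembly, differed by -0.39 ± 0.08, and ELL2, an elongation factor of RNA polymerase II, by -0.34 ± 0.08. RWDD4, HYCC2, TMEM161B, IFRD1, SLC41A1 and EOGT had differences between -0.45 and -0.33.

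NF-kB and cytokine genes were lower at 48 h more often than higher. NF-kB is held in the cytoplasm by inhibitor proteins, of which NFKBIA encodes the best known, and once free it raises cytokine genes together with its own inhibitors. Of 34 tested genes, 12 were counted as lower at an unadjusted p under 0.05 and 1 as higher, 9 were without overlap in the lower direction, and the median difference was -0.14. The feedback inhibitor NFKBIA read 10.77, 11.10 and 10.81 at 48 h, against 11.15, 11.37 and 11.33 at 24 h and differed by -0.39 ± 0.11 (adjusted p = 0.745). TNFAIP3, the ubiquitin-editing inhibitor A20, read 7.62, 7.66 and 7.53 at 48 h, against 7.93, 7.83 and 7.96 at 24 h, a difference of -0.31 ± 0.08, and its 2 groups were tight. The subunits NFKB1 (-0.31 ± 0.09), NFKB2 (-0.46 ± 0.14) and RELB (-0.32 ± 0.11) had negative differences without overlap, on the same side as NFKBIA and TNFAIP3. Among the chemokines CXCL8 differed by -0.31 ± 0.12 without overlap, while CXCL5 (-0.43 ± 0.17) and CCL2 overlapped. CCL2, a monocyte attractant, had the most negative difference of all 14232 genes and read 9.50, 10.53 and 9.84 at 48 h, against 10.02, 11.12 and 11.16 at 24 h; its arrays were spread by more than 1 within each time and the standard error was 0.33. The epidermal growth factor ligands EREG (-0.21 ± 0.08) and HBEGF (-0.21 ± 0.08) were lower on every 48 h array. The single member counted as higher was IGFBP7, a secreted binding protein of insulin-like growth factors, with 0.38 ± 0.12. PTGS2, the inducible cyclooxygenase described above, was not a member of this list and was higher without overlap (0.60 ± 0.15). For the cytokines IL6 (0.31 ± 0.16) and TNF (0.03 ± 0.09), both dim on these arrays, no difference was detectable.

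The windows of NFKBIA, TNFAIP3 and NFKB1, the inhibitors and the subunit described above, are shown because they hold the NF-kB motif, which is in capitals (GRCh38.p14, RefSeq, 250 bases before the start site; NFKBIA chr14:35404750-35404999, minus strand; TNFAIP3 chr6:137867009-137867258, plus strand; NFKB1 chr4:102501109-102501358, plus strand). In NFKBIA it lies 81 bases before the start, in TNFAIP3 67 bases and in NFKB1 49 bases, and TNFAIP3 also holds an E-box 78 bases before the start, in capitals as well. Windows were at hand for 26 of the 34 tested genes, and 8 of the 26 held the motif (CXCL2, CXCL3, CXCL5, IL32, IL6, NFKB1, NFKBIA and TNFAIP3), against 1.26% of all windows. The list was drawn up from known NF-kB and cytokine genes, so this describes the list and not its difference with time.
NFKBIA: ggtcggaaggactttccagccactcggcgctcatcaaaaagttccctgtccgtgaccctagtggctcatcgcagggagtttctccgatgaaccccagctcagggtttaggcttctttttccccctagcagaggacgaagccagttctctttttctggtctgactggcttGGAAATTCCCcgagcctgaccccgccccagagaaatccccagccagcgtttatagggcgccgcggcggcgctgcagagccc
TNFAIP3: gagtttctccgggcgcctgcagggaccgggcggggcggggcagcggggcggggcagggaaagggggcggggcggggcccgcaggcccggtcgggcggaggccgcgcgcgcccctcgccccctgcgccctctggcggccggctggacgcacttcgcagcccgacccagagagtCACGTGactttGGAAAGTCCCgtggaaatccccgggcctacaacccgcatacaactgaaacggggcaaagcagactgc
NFKB1: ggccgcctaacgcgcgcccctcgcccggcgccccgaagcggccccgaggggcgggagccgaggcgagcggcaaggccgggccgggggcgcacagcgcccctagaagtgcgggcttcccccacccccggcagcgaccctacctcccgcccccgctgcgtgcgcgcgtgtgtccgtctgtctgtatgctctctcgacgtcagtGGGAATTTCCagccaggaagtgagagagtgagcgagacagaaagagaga

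**Figure D2:**
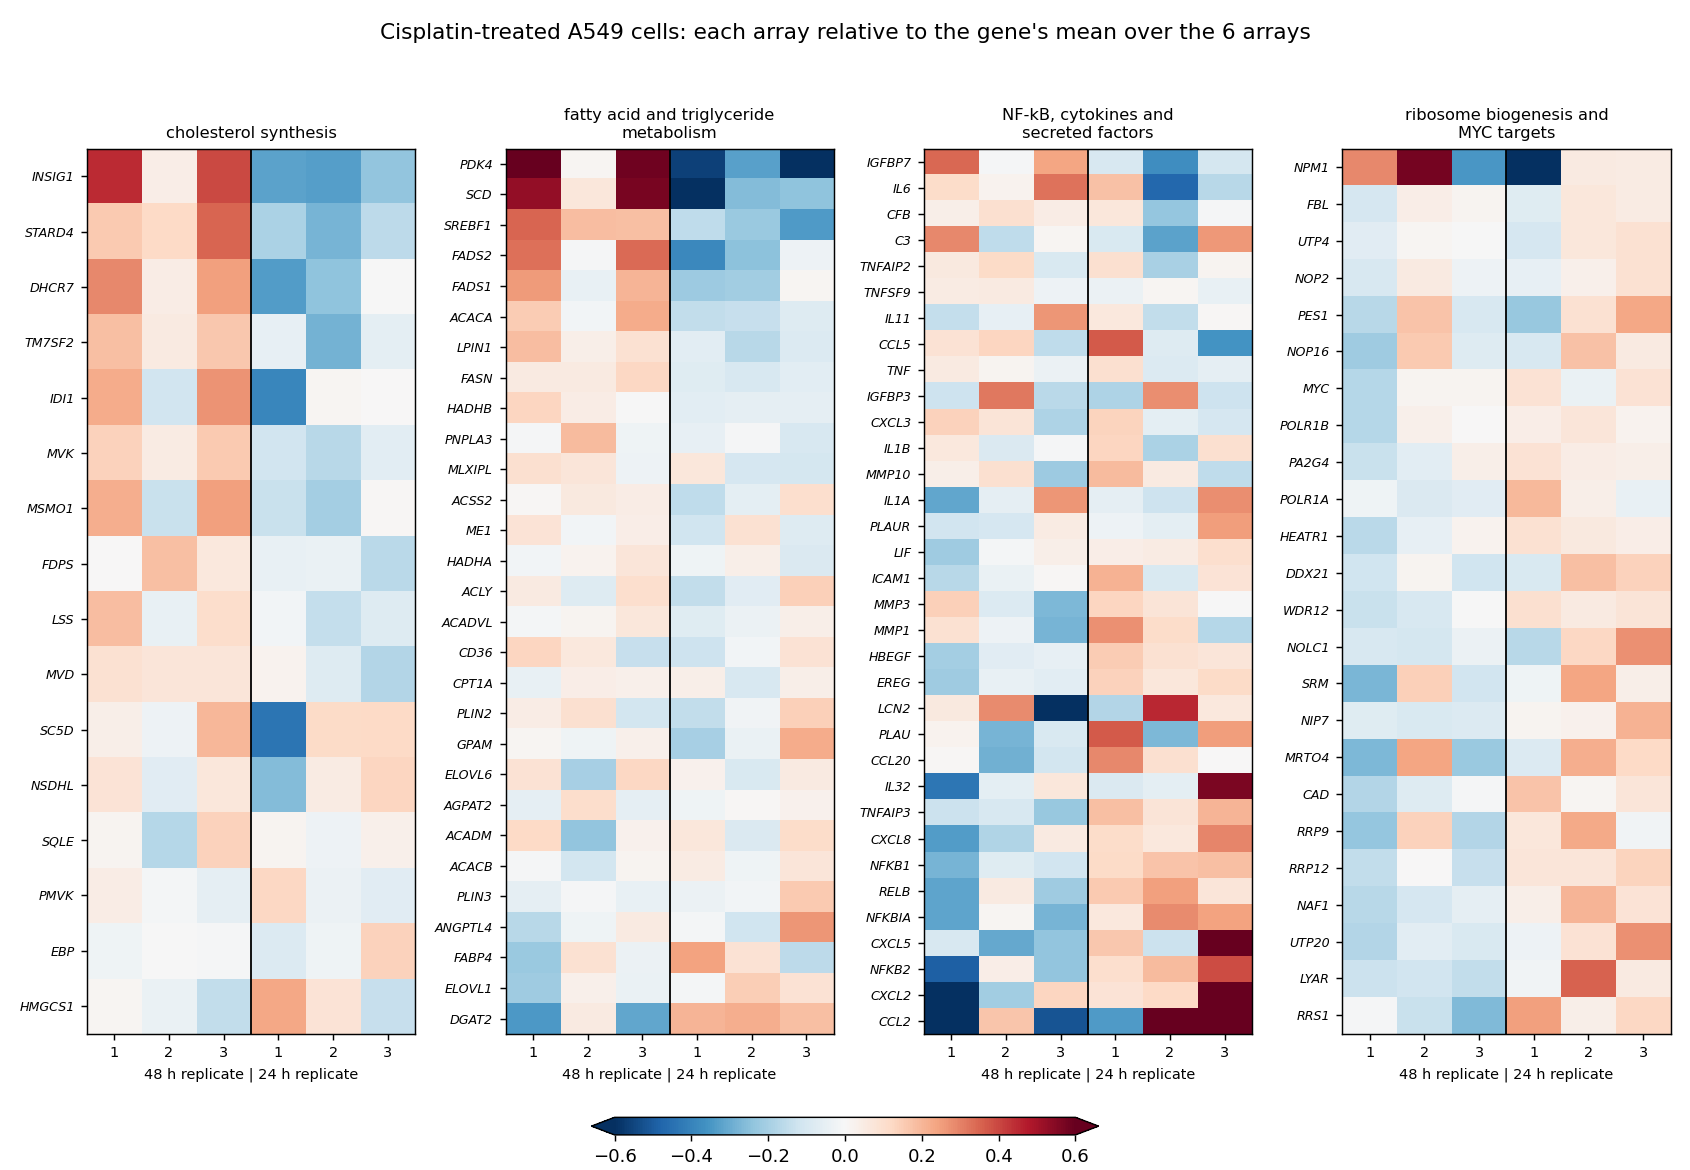
Each tested member of 4 gene lists on the 6 arrays of cisplatin-treated cells, as the log2 RMA value minus the mean of that gene over the 6 arrays (colours end at 0.6 in either direction); the 3 arrays at 48 h are left of the line and the 3 at 24 h right of it. On replicates 1 and 3 at 48 h, INSIG1, SCD and PDK4 near the top of their panels are red and CCL2, NFKB2 and NFKBIA near the bottom are blue, and replicate 2 at 48 h is paler in many rows.

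Targets of YAP and TEAD, which respond to cell shape and crowding, had negative differences in 19 of 22 tested genes. The median was -0.08, 5 were counted as lower at an unadjusted p under 0.05 and 0 as higher, and 3 were without overlap. The members without overlap were CCN1, NUAK2, a kinase of the AMPK family (-0.32 ± 0.10), and AXL, a receptor tyrosine kinase (-0.32 ± 0.10), while CCN2, the close relative of CCN1, read 9.71, 10.05 and 9.85 at 48 h, against 10.01, 10.32 and 10.15 at 24 h. The CCN2 arrays overlapped and the difference was -0.29 ± 0.12. In the list of immediate early and MAP kinase feedback genes, 6 of 32 were counted as lower and 0 as higher, with a median of -0.05. Beside FOSL1 these included SPRY2, a feedback inhibitor of receptor kinases (-0.33 ± 0.09), FOSL2 (-0.24 ± 0.09), JUN (-0.25 ± 0.10, overlapping) and KLF4 (-0.27 ± 0.12).

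Ribosome biogenesis genes showed small differences in a common direction. Of 24 tested genes, 23 had negative values, 10 were without overlap in the lower direction and 0 in the higher, and the median was -0.15, against -0.0018 over all genes. Only 4 of them were counted at an unadjusted p under 0.05: RRS1 (-0.27 ± 0.10), NAF1 (-0.22 ± 0.09), LYAR (-0.26 ± 0.11) and RRP12 (-0.19 ± 0.08), all factors of ribosome or small nucleolar particle assembly. RRP12 read 10.06, 10.21 and 10.07 at 48 h, against 10.28, 10.28 and 10.34 at 24 h. The 1 positive value was NPM1, whose cluster was among the dimmest 5% of genes, and MYC itself differed by -0.09 ± 0.09 with overlapping arrays. The mean level over the list was 10.48 to 10.63 at 48 h and 10.59 to 10.71 at 24 h, so the arrays of the 2 times overlapped.

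**Figure D3:**
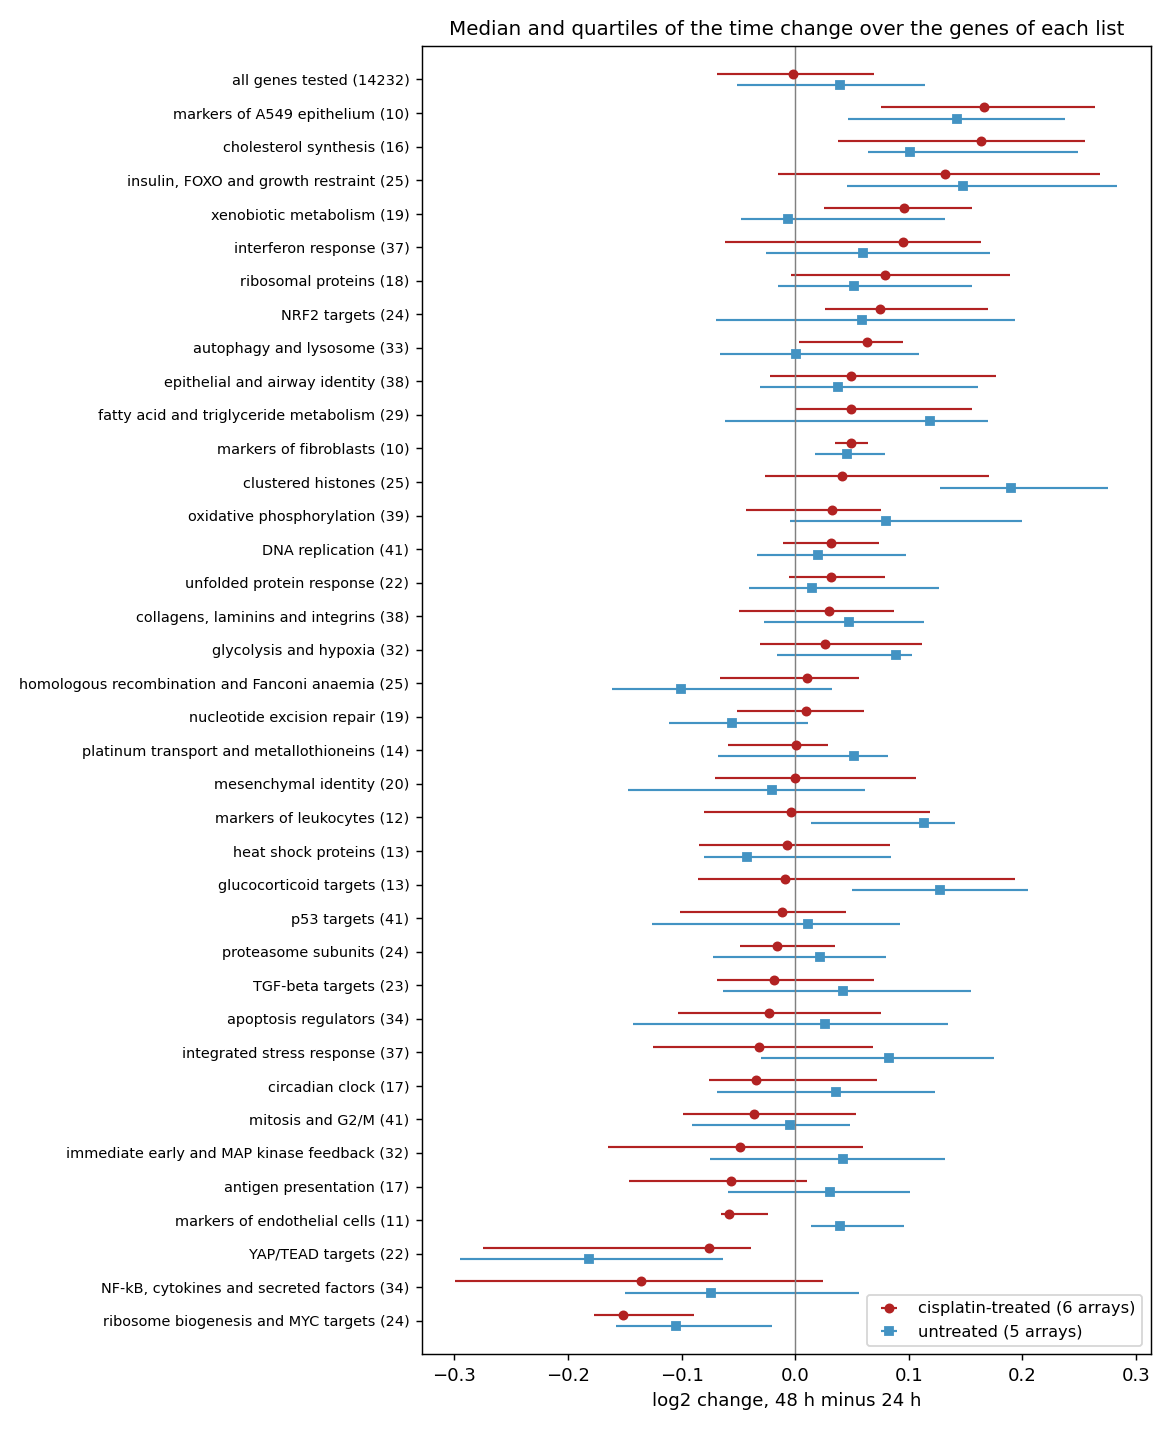
Median (symbol) and quartiles (line) of the log2 difference, 48 h minus 24 h, over the tested genes of each list, in cisplatin-treated cells (red circles, 6 arrays) and in untreated cells (blue squares, 5 arrays, without replicate 3 at 24 h); numbers in brackets are genes, and all genes tested are at the top. The treated medians run between -0.15 for ribosome biogenesis and 0.17 for the A549 markers, close to 0.16 for cholesterol synthesis.

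The p53 response, the best known reaction to DNA damage by cisplatin, had a median difference of -0.01 over 41 tested targets, with 0 counted as higher and 1 as lower at an unadjusted p under 0.05. This was GADD45A, a stress sensor of growth arrest, which read 8.57, 8.55 and 8.59 at 48 h, against 8.75, 9.23 and 9.24 at 24 h and differed by -0.50 ± 0.13 (adjusted p = 0.65). The arrays of CDKN1A, EDA2R and FAS overlapped between the times. CDKN1A, the cyclin-dependent kinase inhibitor p21, read 10.99, 11.01 and 10.75 at 48 h, against 10.79, 11.12 and 10.93 at 24 h, with overlapping arrays, a difference of -0.03 ± 0.11 and a 95% interval of -0.29 to 0.22. EDA2R, a receptor induced by p53, differed by 0.06 ± 0.10 (-0.17 to 0.29), and FAS by 0.01 ± 0.13 (-0.29 to 0.32). TP53INP1, which amplifies p53 signalling, read 9.28, 8.51 and 8.52 at 48 h, against 8.27, 8.48 and 8.34 at 24 h; replicate 1 at 48 h lay about 0.8 above the other 2, which only just cleared the 24 h arrays, and the difference was 0.41 ± 0.19 (-0.03 to 0.84). RRM2B, a ribonucleotide reductase subunit that p53 induces, differed by -0.01 ± 0.13, CABYR by 0.06 ± 0.12, FHL2 by -0.09 ± 0.09, NINJ1 by 0.04 ± 0.10, DUSP4 by 0.05 ± 0.12 and FNTA by 0.02 ± 0.11, all with overlapping arrays. ALDH3A1, an aldehyde dehydrogenase among the brightest genes of A549, read 13.10, 13.01 and 13.05 at 48 h, against 12.75, 12.99 and 12.94 at 24 h, a difference of 0.16 ± 0.09.

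For these genes the level at each time relative to untreated cells bears on the same question, with the caution that it shares the treated arrays with the time difference. At 48 h, cisplatin-treated minus untreated values were 1.04 for CDKN1A, 0.95 for EDA2R, 1.04 for FAS, 0.79 for TP53INP1 and 0.14 for GADD45A. At 24 h they were 1.06 for CDKN1A without untreated replicate 3 (1.23 with it), 0.97 (1.10) for EDA2R, 0.83 (0.91) for FAS, 0.78 (0.91) for TP53INP1 and 0.41 (0.52) for GADD45A. The difference between these values at the 2 times had an adjusted p of 1 in the 12-array fit for each of the 5 genes.

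In the proliferation and repair lists few genes were counted. The 41 genes of DNA replication had a median of 0.03, with 0 counted in either direction at an unadjusted p under 0.05. The 41 genes of mitosis and G2/M had a median of -0.04, with 3 counted as lower: CKS2, a subunit of cyclin-dependent kinases (-0.42 ± 0.15, overlapping), and the checkpoint kinases TTK (-0.22 ± 0.09) and BUB1 (-0.17 ± 0.08). Homologous recombination and Fanconi anaemia genes had a median of 0.01 with 0 of 25 counted, and nucleotide excision repair genes, which remove platinum adducts, 0.01 with 1 of 19 counted (CCNH, -0.18 ± 0.08). These list medians were smaller than 0.23, the median half-width of a single gene's 95% interval, but so were those of all 37 lists. That width is not the precision of a list median. None of the genes passed adjustment. The integrated stress response, which adjusts translation and amino acid supply, was mixed: of 37 tested genes 3 were counted as higher, among them NUPR1 (0.40 ± 0.10), and 4 as lower, among them STC2, CHAC1, a glutathione-degrading enzyme (-0.34 ± 0.10), and MTHFD2, a mitochondrial enzyme of folate metabolism (-0.25 ± 0.08).

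The untreated cells, on separate arrays, show which of these differences were also present without drug. Over 48 h against 24 h, the untreated fit had 0 genes at an adjusted p under 0.05 with all 6 arrays and 0 without replicate 3 at 24 h. At an unadjusted p under 0.005 it had 44 (0.309%) and 31 (0.218%) genes, and at an unadjusted p under 0.05 it had 379 (2.66%) and 333 (2.34%). Its 44 genes became between 19 and 98 when single untreated arrays were left out, with 19 without untreated 48 h replicate 1 and 98 without untreated 24 h replicate 1. Of the 98 genes of the treated short list, 91 (92.9%) had the same sign in the 5 untreated arrays and 86 (87.8%) in all 6, against 58.8% and 55.5% of all genes. Over the 5 untreated arrays, 8837 of all 14232 genes were positive and 5395 negative. The 34 short-listed genes above the median level that were higher in treated cells were also positive in untreated cells in 34 of 34 cases, and 25 were without overlap in the same direction over the 5 arrays, where 8.38% of all genes were higher without overlap. Their median difference was 0.52 in treated cells, whose values chose them, and 0.38 over 5 and 0.57 over 6 untreated arrays, whose values were not used in the choice. For the 16 that were lower, 16 of 16 were negative over 5 untreated arrays and 12 of 16 over 6, and 7 were without overlap over the 5 (background 7.91%). Their medians were -0.38 in treated cells and -0.22 over 5 and -0.05 over 6 untreated arrays, so the untreated value rested on whether replicate 3 at 24 h was kept.

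For single genes and lists, the treated difference is followed by the untreated difference over 5 arrays and then over all 6. The lipid genes had positive differences in both kinds of cells: 0.59 in treated cells and 0.74 and 0.91 in untreated cells for INSIG1, 0.48, 0.56 and 0.57 for SREBF1, 0.78, 0.58 and 0.76 for SCD, 0.61, 0.78 and 0.95 for HILPDA, and 1.07, 0.95 and 1.195 for PDK4, whose untreated arrays overlapped. The differences were negative in both with either set of arrays for the growth-signal genes and CCL2, with -0.66, -0.76 and -0.71 for ETS1, -0.52, -0.89 and -0.83 for FOSL1, -0.53, -0.53 and -0.46 for CCN1, and -0.81, -1.19 and -1.12 for CCL2. Untreated values were nearer 0 for some other genes on the lower side, with -0.50, -0.24 and -0.12 for GADD45A, -0.34, -0.08 and -0.04 for RHOB, and -0.31, -0.14 and -0.0018 for NFKB1. The NF-kB genes varied in this, with -0.31, -0.17 and -0.12 for TNFAIP3, but -0.39, -0.53 and -0.40 for NFKBIA. NFKB2 had -0.46, -0.39 and -0.34. PAK1IP1 had -0.39 in treated cells, and its untreated value was -0.09 over 5 arrays and turned to 0.06 over 6. For none of these genes did the treated minus untreated difference pass its own test. List medians were 0.16, 0.10 and 0.26 for cholesterol synthesis, 0.13, 0.15 and 0.14 for growth restraint, -0.14, -0.07 and -0.07 for NF-kB and cytokines, -0.15, -0.10 and -0.03 for ribosome biogenesis, and -0.08, -0.18 and -0.07 for YAP and TEAD targets. The untreated median of all genes was 0.04 with either set. The cholesterol median was thus lower in untreated than in treated cells over 5 arrays and higher over 6, and the untreated medians of the ribosome biogenesis and YAP lists lay nearer 0 over 6 arrays, each moved by 1 array.

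**Figure D4:**
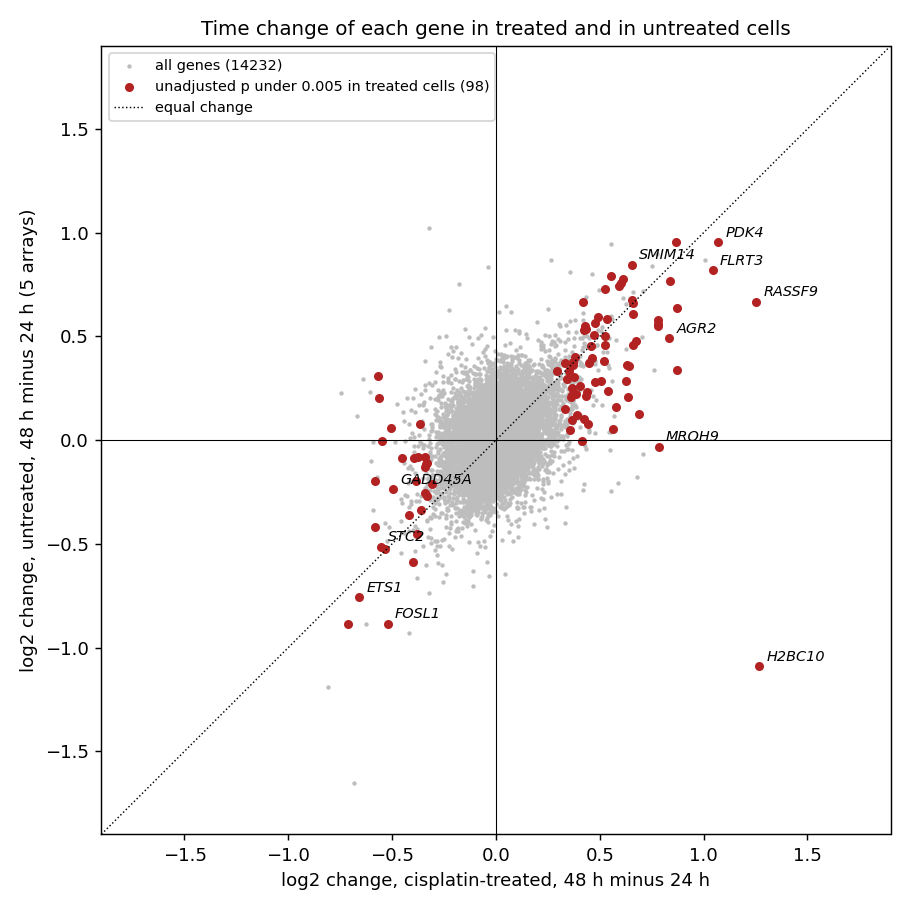
Log2 difference, 48 h minus 24 h, of each of the 14232 genes in cisplatin-treated cells (horizontal, 6 arrays) and in untreated cells (vertical, 5 arrays); red points are the 98 genes at an unadjusted p under 0.005 in treated cells and the dotted line marks equal differences. Of the red points, 91 have the same sign on both axes, and H2BC10 lies far from the dotted line at the lower right.

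Whether a time difference was particular to treated cells was tested as the treated minus the untreated difference in a limma fit of all 4 groups. No gene had an adjusted p under 0.05 with 12 arrays (smallest adjusted p = 1) or without untreated 24 h replicate 3 (0.999). At an unadjusted p under 0.005 there were 5 genes (0.0351%) and 7 genes (0.0492%), and at an unadjusted p under 0.05 there were 163 (1.15%) and 132 (0.927%). H2BC10, a clustered histone H2B gene, had the largest, 2.86 over 12 arrays. It read 4.66, 4.79 and 4.34 at 48 h, against 3.84, 3.27 and 2.88 at 24 h in treated cells, and its untreated difference was -1.59 over 6 arrays and -1.09 over 5. The cluster was among the dimmest 2% of genes, histone H2B genes are near copies of each other, and the test of the difference passed (adjusted p = 0.00254) in 1 of 12 fits that left out a single array, the one without untreated 24 h replicate 1. For CHAC1 the treated minus untreated difference was -0.74, as it was lower at 48 h with cisplatin (mean 8.15 at 48 h and 8.49 at 24 h, without overlap), and its untreated difference was 0.38 over 5 and 0.40 over 6 arrays, with overlap (adjusted p of the difference = 1).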

How the data were processed

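RNA of cisplatin-treated and untreated A549 cells was hybridised to Human Exon 1.0 ST arrays. The submitters' processing notes name Affymetrix Power Tools, Affymetrix Expression Console and RMA, and the authors deposited log2 values, 1 per transcript cluster, between 2.14 and 14.31 and not centred per gene. RMA includes quantile normalization, so a shift of all genes together would not be seen. Starting from these values, genes were named through the platform's probe table (2408 clusters with several symbols and 5171 without an entry were left out), and 48 h was set against 24 h with limma 3.58.1 in R 4.3.3 (lmFit and eBayes, Benjamini-Hochberg adjustment). The fit used the 6 treated arrays and no block, and was tested on simulated data.

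Named genes were the 15 largest differences per direction among genes at an unadjusted p under 0.005, without overlap and above the median level, up to 5 members of each of 37 gene lists with the smallest p, the genes the study followed up, and those with the smallest p for the difference between treated and untreated cells. Genes outside this rule are said to be chosen after their values were seen. The genes, lists and tests were chosen with earlier results of these data known. Lists are described by counts and medians, with no set test. Alternatives were other sets of arrays, a replicate block, single arrays left out (for untreated arrays and the difference these were added after seeing the data), renormalization, array weights, other variance priors, a filter on dim genes and other cluster choices. Promoter windows are from RefSeq (GRCh38.p14), and the labels do not say that replicate numbers mark shared experiments.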

Additional observations from a re-analysis of the deposited data

How the results depend on the processing

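With 0 genes at an adjusted p under 0.05, the treated time difference gave 100 with array weights (weights between 0.446 and 3.81), 1 with all transcript clusters included, and 0 in each fit without 1 array. Its 98 genes at an unadjusted p under 0.005 became 41 in the fit of 4 groups on 12 arrays, 708 with array weights, 65 of 7116 when only genes above the median level were tested, and 53 to 144 without 1 array; quantile normalization, median centring, an intensity trend with robust variances, 11 arrays, the mean of a gene's clusters and all clusters gave 70 to 119. For the untreated time difference, leaving out 1 array gave 0 to 1 genes at an adjusted p under 0.05 (H2BC10, adjusted p = 0.000392, without 24 h replicate 1) and 19 to 98 at an unadjusted p under 0.005, against 103 in the 12-array fit. For the treated minus untreated difference these counts were 0 to 1 (H2BC10 again) and 4 to 22, with 82 under array weights against 5.

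The replicate number as a block gave 0 genes at an adjusted p under 0.05 in treated cells (smallest 0.0997) and 221 at an unadjusted p under 0.005, and 113 and 265 in untreated cells. Deviations of same-numbered arrays correlated at 0.0988, 0.422 and 0.313, and 5 of 6 treated arrays correlated best with their own number, which is a hint of shared runs that the labels do not state, so the pairing was not used.

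Of 2256 results of 154 genes under 15 alternatives, 2182 kept their direction and side of the threshold, 56 passed it (all with array weights) and 18 changed sign, in genes near 0. With array weights CABYR stood at -0.10, NINJ1 at -0.0547 and RRM2B at 0.0365. Without 1 array the ranges were -0.0384 to 0.166 for CABYR, -0.109 to 0.0528 for CDKN1A, -0.0591 to 0.156 for DUSP4, -0.10 to 0.16 for FAS, -0.075 to 0.0847 for FNTA, -0.0135 to 0.12 for NINJ1 and -0.11 to 0.0909 for RRM2B. Of 296 list medians under an alternative, 12 moved by more than the spread between arrays. The causes of these changes were not tested.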

Other observations

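Interferon-stimulated genes had a median difference of 0.09 over 37 tested genes in cisplatin-treated cells at 48 h against 24 h, with 2 counted as higher and 0 as lower at an unadjusted p under 0.05. These were IFI6 (0.41 ± 0.12 SE) and IFIT3, an antiviral protein that binds RNA complexes (0.33 ± 0.11), both higher on every 48 h array. In untreated cells the differences were 0.37 over 5 and 0.38 over 6 arrays for IFI6, and 0.06 over 5 and -0.02 over 6 for IFIT3. Of 24 tested targets of NRF2, the factor of the oxidative stress response, 20 had positive differences in treated cells (median 0.07) and 13 over the 5 untreated arrays (median 0.06, or 0.13 over 6). Of all 14232 genes, 7011 were positive in treated cells and 8837 over the 5 untreated arrays. AKR1C3, an aldo-keto reductase that is very bright in A549 cells, differed by 0.37 ± 0.11 in treated cells and by 0.15 over 5 and 0.16 over 6 arrays of untreated cells. Among 19 tested genes of xenobiotic metabolism, SULT2B1, a sulfotransferase of sterols, differed by 0.44 ± 0.11 in treated cells and by 0.54 over 5 and 0.60 over 6 untreated arrays. CYP1A1, the classical target of the aryl hydrocarbon receptor, differed by -0.25 ± 0.10 in treated cells and by -0.20 over 5 and -0.26 over 6 untreated arrays. The clustered histone genes had a median of 0.04 over 25 genes in treated cells, with 1 without overlap, and of 0.19 over 5 and 0.19 over 6 untreated arrays, with 23 positive and 10 higher without overlap over the 5. Over the same 5 arrays, 8837 of all 14232 genes were positive and 1192 (8.38%) were higher without overlap.

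Among 7579 transcript clusters with several symbols or without an entry in the probe table, 1 had an adjusted p under 0.05 for the treated time difference (limma, adjusted p = 0.0438 within these clusters and 0.0301 over all 22011). This cluster has no name here. It read 4.75, 4.64 and 4.79 at 48 h, against 6.40, 6.26 and 6.61 at 24 h, in cisplatin-treated cells, a difference of -1.69 ± 0.11. In untreated cells it read 6.02, 5.71 and 6.09 at 48 h, against 5.68, 6.28 and 5.65 at 24 h, with overlap. The low values were thus those of the treated 48 h arrays, at a dim level.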
